A study of Homo sapiens with 4 samples.

Results

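The hnRNP, SR and SF3 splicing factors were followed in 4 human liver cancer cultures. Genes were chosen by symbol, as those starting with HNRNP, SRSF, SFRS, SF3A or SF3B, and 42 of 16370 genes in the count tables met this rule. They comprised 20 hnRNP genes, 13 SR genes, 3 SF3A genes and 6 SF3B genes, and all 42 were listed for both pairs of lines. The hnRNP group included a transcribed pseudogene, HNRNPA3P1, which had 5 counts over all libraries. The relatives written HNRPDL and HNRPLL in the tables were not taken by the rule.

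The hepatocellular carcinoma cells (HCC) were Hep3B and Huh7, both established hepatoma lines. From each a culture was derived, named Hep3B-C and Huh7-C, under conditions meant to enrich hepatic cancer stem cells (HCSC). No treatment, time point or genetic change separated the groups in the labels, and each of the 4 cultures gave 1 library of total RNA. A stem-like culture is defined by how it was grown and remains a bulk sample, so fewer cells of a kind and less RNA per cell cannot be told apart.

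Introns are removed by the spliceosome, which assembles on each pre-mRNA from small nuclear ribonucleoproteins (snRNPs). SF3A and SF3B are the protein complexes that hold the U2 snRNP on the branch point, the intron base that attacks the upstream splice site. SR proteins mostly bind exons and favour their inclusion, while hnRNP proteins coat nuclear RNA and often repress nearby splice sites, so that the balance of both classes shapes alternative splicing in liver as in other tissues.

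The shallowest library was Hep3B with 2896418 gene counts, and Hep3B-C, Huh7 and Huh7-C had 4641927, 4537510 and 4333808. The lowest level a library could show was set at 3 counts, or 1.04, 0.646, 0.661 and 0.692 CPM (counts per 1000000 gene counts) in that order. The splicing factors together held 1.13%, 1.17%, 0.931% and 1.22% of the counts. The 8 hepatocyte and hepatoma markers summed to between 26489 and 62363 CPM per library, and single markers varied between the lines. ALB (serum albumin) was at 19541, 18469, 106 and 267 CPM and AFP, the fetal liver protein, at 5584, 905, 5.73 and 2.77 CPM, in the order above. FGB (fibrinogen) went the other way, at 92.5, 23.5, 1436 and 756 CPM. The stem cell marker PROM1 (CD133) was lower in Hep3B-C (77.8 CPM) than in Hep3B (371 CPM), with 25.1 and 20.3 CPM in Huh7 and Huh7-C. EPCAM was at 514, 177, 43.2 and 48.7 CPM in the order above. THY1 (CD90) was not listed for the Hep3B pair and had 0 and 1 counts in Huh7 and Huh7-C. Markers of leukocytes, endothelium, fibroblasts and red cells summed to between 4.31 and 27.7 CPM per library, with PTPRC listed in none. In CPM, Hep3B was the highest library for 15 and the lowest for 11 of 41 splicing factors, against 42.1% and 28.3% of all genes. Its values are given beside each result.

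The sequences upstream of the SF3 genes are shown first, because a short element (CCGGAAG) recurred in them, as did another (GGGCGG) described below. RefSeq promoter sequences (GRCh38.p14) matched 38 of the 42 genes, with HNRNPA1, HNRNPA3P1, SF3B3 and SRSF2 unmatched. The 250 bases before each annotated start were searched on both strands. The letters CCGGAAG, the core bound by ETS factors, were found in 6 of 8 SF3 promoters, 3 of 12 SR promoters and 2 of 18 hnRNP promoters, against 8.82% of 27305 promoters. The 6 SF3 matches follow, each read 5′ to 3′ on the strand of the match, with the match in capitals. SF3A1 lies at chr22:30356926-30356954 (minus), SF3A2 at chr19:2236804-2236832 (plus), SF3A3 at chr1:37990073-37990101 (plus), SF3B14 (SF3B6 in RefSeq) at chr2:24076328-24076356 (plus), SF3B2 at chr11:66052339-66052367 (minus) and SF3B4 at chr1:149927812-149927840 (minus).
SF3A1: aggggacggtcCCGGAAGtgcgccagtcg
SF3A2: tctcatttgccCCGGAAGtgctttctttg
SF3A3: ttccgcgagtgCCGGAAGtgccccgggac
SF3B14: tccaggacccgCCGGAAGctgttacagcg
SF3B2: gcgcgaccaacCCGGAAGctggggccagc
SF3B4: ccgtcttcgccCCGGAAGtggaagtcgtg

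These matches ended between 2 and 61 bases before the start, and SF3B2 and SF3B14 held 2 and 3 matches (the one nearest the start is shown). The promoters of SF3B1 and SF3B5 held none within the 250 bases. Other elements were spread differently among the families. The CCAAT box (letters CCAAT) was in 12 of 18 hnRNP promoters and 1 of 8 SF3 promoters, against 33% of all promoters, and the GC box (GGGCGG) in 14 of 18 and 6 of 8, against 42.3%. SR promoters held these in 2 of 12 and 4 of 12 cases. The TATA box (TATAAA) was in 0 of 8 SF3 promoters, 3 of 18 hnRNP promoters and 3 of 12 SR promoters, against 11.1%. The letters CCGGAAG and GGGCGG both hold a CG dinucleotide. SF3 promoters had a median of 24 CG dinucleotides in the 250 bases, SR promoters 24.5 and hnRNP promoters 25, against 11 over all promoters. No comparison with promoters of like base composition was made. A match describes the letters only, and binding was not measured here.

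Levels between genes were compared as RPKM (CPM divided by the gene length in kilobases). SF3B2, a subunit that contacts pre-mRNA near the branch point, had the highest mean of all 42 genes, at 319 and 524 RPKM in Hep3B and Hep3B-C, and 238 and 328 RPKM in Huh7 and Huh7-C. Among hnRNP genes HNRNPC, which binds uridine tracts, came first with 256, 235, 285 and 313 RPKM, followed by HNRNPK with 233, 242, 240 and 277 RPKM. SRSF9 led the SR genes at 81.9, 93.5, 135 and 100 RPKM. The lowest protein-coding genes were HNRNPA1L2, a copy of HNRNPA1, and SRSF12, with mean levels of 1.99 and 2.58 RPKM.

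To identify splicing factors altered in stem-like cells, every HCSC culture was set against the line it came from. Genes were called at a false discovery rate (FDR) of at most 0.01 in the Audic-Claverie test, which asks whether a pair of counts differs by more than Poisson noise, and a log2 fold-change (HCSC/HCC) of at least 1 in size. With 1 library per line, the test compares those libraries, covers sampling noise only and has no replicate check. Intervals are 95% and cover counting error only. In Hep3B-C, 6 of the 42 genes were up-regulated and 10 were down-regulated. Over all genes of this pair 13.2% were called up and 30.4% down. The 6 up-regulated genes were all SF3 subunits (66.7% of the 9 SF3 genes), and 5 of the 10 down-regulated genes were SR genes. Those 5 were 38.5% of the 13 SR genes, near the 30.4% of all genes. With TMM scaling, which balances the typical gene between libraries, 11 of the 42 were up-regulated and 5 down-regulated. Over all 15480 genes TMM scaling gave 3056 up and 3134 down. With an assumed biological coefficient of variation of 0.4, as might hold between separate cultures, 0 of the 42 were called in either direction. Over all 15480 genes this setting left only 62 up and 169 down. In Huh7-C, 1 of the 42 genes was up-regulated and 0 were down-regulated, against 4.19% and 4.15% of all genes. With 1 call in Huh7-C there was little room for overlap, and no splicing factor was called in both pairs. Over all genes 0.568% were called up in both, 1.49% down in both and 2.45% in opposite directions.

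**Figure D1:**
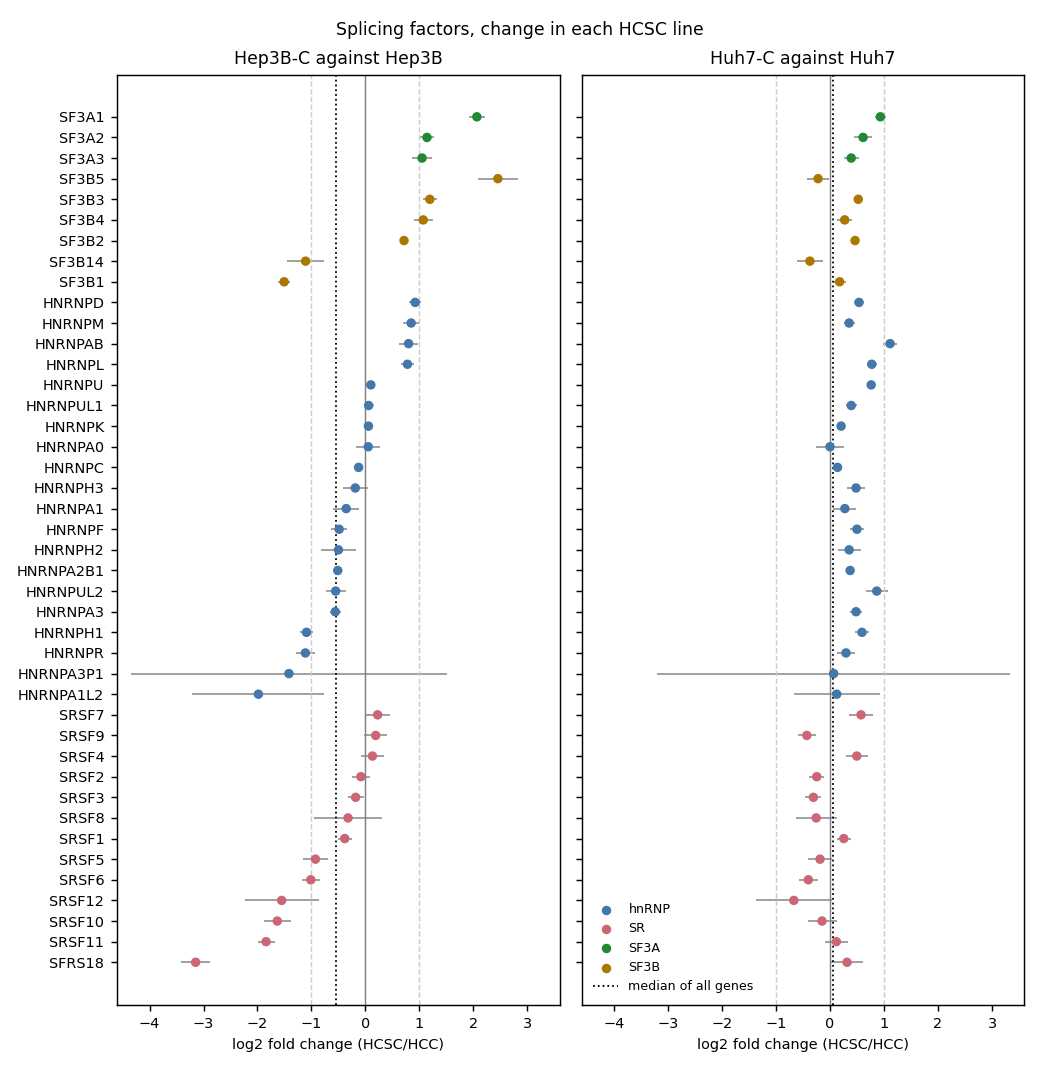
Log2 fold-change (HCSC/HCC) of each of the 42 genes on the horizontal axis, Hep3B-C against Hep3B on the left and Huh7-C against Huh7 on the right. Bars are 95% counting intervals, dashed lines mark a change of 1 in either direction and the dotted line is the median of all genes (-0.55 and 0.06). Most SF3 genes sit to the right and most SR genes to the left of 0 in Hep3B-C, while the Huh7-C values stay between -0.67 and 1.11.

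Over the 9 SF3 genes the median log2 fold-change was 1.07 for the Hep3B pair (-0.55 over all genes) and 0.39 for the Huh7 pair (0.06 over all genes). With GC and length trends removed the median in Hep3B-C turned to -0.20, with all genes at -0.55. Without that removal all SF3A mRNAs were higher in both HCSC lines. The 3 subunits summed to 432 CPM in Hep3B and 1209 in Hep3B-C, a ratio of 2.80 (2.63 to 2.98). In Huh7 and Huh7-C they summed to 517 and 847 CPM, a ratio of 1.64 (1.55 to 1.72).

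SF3A1, the largest SF3A subunit, was at 137 and 572 CPM in Hep3B and Hep3B-C, and 243 and 464 CPM in Huh7 and Huh7-C. Both HCSC values exceeded both HCC values. The ratio was 4.18 in Hep3B-C (3.76 to 4.66, FDR = 2.46e-212), and SF3A1 was called up there. In Huh7-C the ratio was 1.91 (1.77 to 2.06, FDR = 1.12e-67), just under the required 2-fold.

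SF3A2 was at 184, 405, 106 and 163 CPM in the same order of libraries. It was up-regulated in Hep3B-C with a log2 fold-change of 1.14 (SE 0.07) and reached a log2 fold-change of 0.61 in Huh7-C (SE 0.09). SF3A2 has the highest GC content of the 41 genes with a value, 66.6%, and its log2 fold-change in Hep3B-C turned to -0.86 when the trends with GC content and length were removed. SF3A3 was at 112, 232, 168 and 220 CPM and was up-regulated in Hep3B-C (log2 fold-change 1.05, SE 0.09). Its Huh7-C log2 fold-change was 0.39 (SE 0.07).

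The SF3B subunits moved in both directions in Hep3B-C, where 3 of 6 were up-regulated and 2 were down-regulated (13.2% and 30.4% of all genes). With TMM scaling 4 were up and 1 down, against 3056 and 3134 of all 15480 genes. With GC and length trends removed 1 was up and 1 down, against 600 and 3991 of all genes. SF3B1 is the large scaffold subunit that encloses the branch point, and is recurrently mutated in myelodysplasia. It was at 621 and 219 CPM in Hep3B and Hep3B-C, and 266 and 301 CPM in Huh7 and Huh7-C. Hep3B lay above the other 3 libraries, which differed little by comparison. The ratio in Hep3B-C was 0.352 (0.326 to 0.380, FDR = 1.43e-162), and in Huh7-C it was 1.13 (1.04 to 1.22). With GC and length trends removed, the Hep3B-C log2 fold-change of SF3B1 went from -1.51 to -0.26 and was no longer called.

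SF3B5 is a small subunit bound to SF3B3. Its level was 22.8 and 126 CPM in Hep3B (66 counts) and Hep3B-C, and 92.3 and 79.1 CPM in Huh7 and Huh7-C. Here Hep3B lay below the other 3 libraries. SF3B5 had the largest rise of the 42 genes in Hep3B-C, a ratio of 5.51 (4.27 to 7.22, FDR = 5.55e-58), whereas the Huh7-C ratio was 0.857 (0.741 to 0.991, FDR = 0.089). Removal of GC and length trends lowered its log2 fold-change in Hep3B-C from 2.45 to 0.74.

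SF3B3, a propeller-shaped subunit, was at 228, 521, 514 and 738 CPM. It was up-regulated in Hep3B-C (ratio 2.29, 2.10 to 2.50) and had a ratio of 1.44 in Huh7-C (1.36 to 1.52), the largest among SF3B genes there. With GC and length trends removed its Huh7-C log2 fold-change went from 0.52 to 0.02, below SF3B2 (0.47) and SF3B4 (0.46). SF3B4, the RNA-binding partner of SF3B2, was at 119, 251, 179 and 216 CPM and was up-regulated in Hep3B-C (ratio 2.10, 1.86 to 2.38). Its log2 fold-change in Hep3B-C went from 1.07 to -0.26 with GC and length trends removed. In Huh7-C its ratio was 1.21 (1.10 to 1.33). SF3B2 itself was at 924, 1517, 689 and 950 CPM, had ratios of 1.64 and 1.38 and passed the FDR but not the fold requirement in either line. Removal of GC and length trends turned its log2 fold-change in Hep3B-C from 0.71 to -0.20. The median of all genes in Hep3B-C with these trends removed was -0.55.

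SF3B14, the subunit that touches the branch point adenosine, was at 56.3 and 26.1 CPM in Hep3B and Hep3B-C, and 67.9 and 52.4 CPM in Huh7 and Huh7-C. It was down-regulated in Hep3B-C (ratio 0.463, 0.363 to 0.590), and its Huh7-C ratio of 0.772 (0.647 to 0.919, FDR = 0.011) missed the threshold. Of the 6 SF3 genes with the ETS core, 5 were higher and SF3B14 was lower in Hep3B-C, where 4316 of 11433 genes were higher. Among SR and hnRNP genes with the core, HNRNPD (log2 fold-change 0.92) and SRSF4 (0.13) were higher. HNRNPF (-0.49), SRSF5 (-0.93) and SFRS18 (-3.15) had the core and were lower. SF3B5, without the core, had 2.45. With GC and length trends removed the Hep3B-C values of SF3A2 (-0.86), SF3B2 (-0.20) and SF3B4 (-0.26) were negative as well. The median of all genes was then -0.55, and of these SF3 genes only SF3A2 lay below it.

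**Figure D2:**
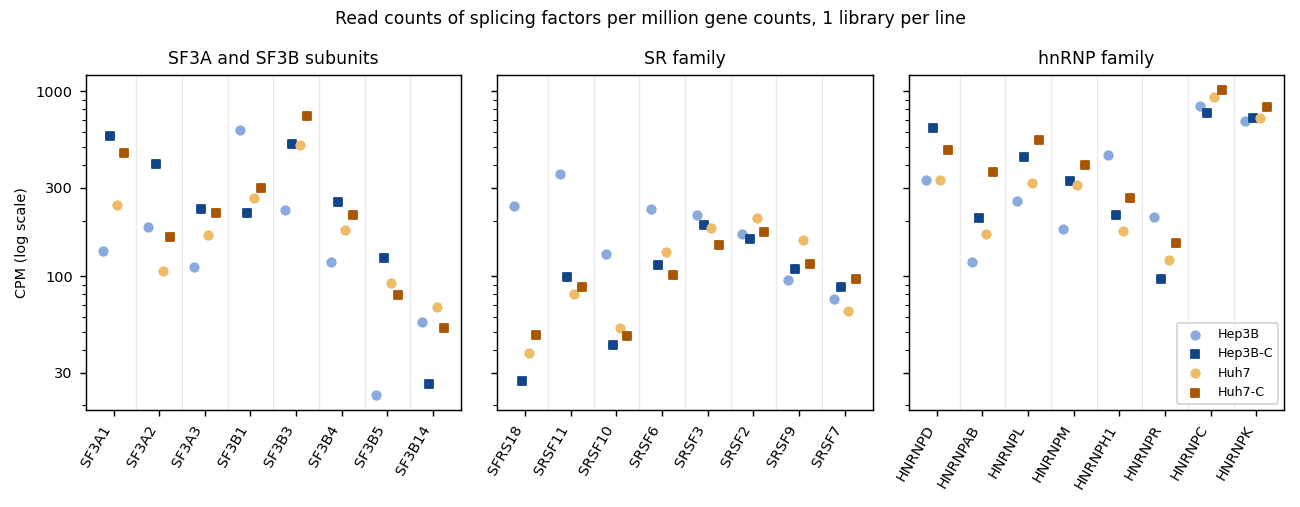
CPM on a log axis for 24 of the 42 genes by family, with circles for the HCC lines, squares for the HCSC lines, blue for the Hep3B pair and orange for the Huh7 pair (1 library each, no error bar). Hep3B is the highest point for SF3B1, SFRS18, SRSF11 and SRSF10 and the lowest for SF3B5, SF3A3 and SF3B3.

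Proportions among SF3 subunits were compared within each library, where the library total cancels but trends with GC content and length do not. The RPKM of SF3B5 was 0.214 times that of SF3B1 in Hep3B (0.165 to 0.273) and 3.34 times in Hep3B-C, against 2.02 and 1.53 times in Huh7 and Huh7-C. SF3A1 stood at 0.185 times SF3B1 in Hep3B, and at 2.19, 0.766 and 1.29 times in the others. SF3B3 gave 0.162, 1.05, 0.852 and 1.08, and SF3B4 gave 0.533, 3.18, 1.86 and 1.98. All 4 ratios were lowest in Hep3B, and they share SF3B1, which was high there, as the denominator. SF3B1 has a GC content of 36.4%, and SF3A1, SF3B3, SF3B4 and SF3B5 have 50.9%, 48.5%, 55.1% and 56.6%. With GC and length trends removed, log2 fold-changes in Hep3B-C were -0.26 for SF3B1 and SF3B4 and 0.74 for SF3B5. They were 2.26 for SF3A1 and 2.13 for SF3B3. SF3A2 relative to SF3A3 gave 2.82, 3.01, 1.09 and 1.27, which followed the parental line and was not lowest in Hep3B. Between Huh7 and Huh7-C the intervals did not overlap for SF3A1, SF3B3 and SF3B5, and overlapped for SF3B4.

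**Figure D3:**
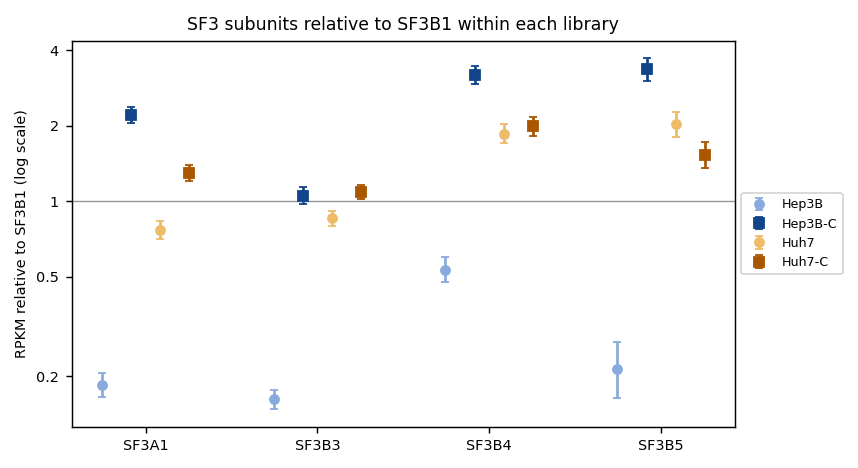
RPKM of SF3A1, SF3B3, SF3B4 and SF3B5 relative to SF3B1 in the same library, on a log axis with 95% counting intervals. Trends with GC content and length were not removed. The Hep3B points lie between 0.162 and 0.533, below those of the other 3 libraries, which lie between 0.766 and 3.34.

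SR genes were mostly lower in Hep3B-C, as were 7117 of 11433 genes with at least 20 counts in the pair. Summed over the family, Hep3B had 2050 CPM, Hep3B-C 1238, Huh7 1317 and Huh7-C 1272. The ratio was 0.604 in Hep3B-C (0.582 to 0.626) and 0.966 in Huh7-C (0.931 to 1.002), an interval that includes 1. Hep3B-C, Huh7 and Huh7-C were close to each other, and Hep3B had the highest level for 8 of the 13 SR genes, against 42.1% of all genes. The median log2 fold-change of SR genes in Hep3B-C was -0.38, against -0.55 over all genes. With TMM scaling it became 0.10, against -0.07 over all genes. Under that scaling 7 of 13 SR genes were higher, and 5547 of 11433 over all genes. In Huh7-C the median of SR genes was -0.19, against 0.06 over all genes.

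SFRS18 (PNISR in RefSeq), an SR-related protein that associates with pinin, had the largest fall. It was at 241 and 27.1 CPM in Hep3B and Hep3B-C, and 38.6 and 48.0 CPM in Huh7 and Huh7-C, so that Hep3B alone was high. The ratio in Hep3B-C was 0.113 (0.0924 to 0.136, FDR = 7.94e-164), and the log2 fold-change of -3.15 stayed at -2.31 after removal of GC and length trends. In Huh7-C the ratio was 1.24 (1.01 to 1.53, FDR = 0.096).

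SRSF11, which interacts with U2AF, followed the same pattern with 355, 99.1, 80.4 and 87.2 CPM. It was down-regulated in Hep3B-C (ratio 0.279, 0.249 to 0.312), with a ratio of 1.08 in Huh7-C (0.937 to 1.26). SRSF10, a splicing repressor in its dephosphorylated form, was at 131, 42.2, 52.5 and 47.3 CPM and was down-regulated in Hep3B-C (ratio 0.322). SRSF12, a close relative of SRSF10, was at 16.6, 5.60, 9.26 and 5.77 CPM with at most 48 counts per library. It was called down in Hep3B-C (ratio 0.338, 0.201 to 0.556), and its Huh7-C ratio of 0.623 (0.364 to 1.05) did not pass. With GC and length trends removed, SRSF11 (log2 fold-change -0.96), SRSF10 (-0.77) and SRSF12 (-0.51) were no longer called in Hep3B-C.

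SRSF6 was at 231, 115, 135 and 102 CPM, was down-regulated in Hep3B-C at a log2 fold-change of -1.01 (SE 0.08) and had a log2 fold-change of -0.40 in Huh7-C (SE 0.09). With GC and length trends removed its Hep3B-C value was -0.01. The remaining 8 SR genes were called in neither line. Among them SRSF1, the founding member of the family, was at 296, 227, 206 and 245 CPM. SRSF2 was at 169, 160, 206 and 173 CPM and SRSF3 at 214, 189, 183 and 148 CPM. These levels changed by less than 1.5-fold in either pair.

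SRSF7 and SRSF9 had opposite differences in the Huh7 pair. SRSF7 went from 64.8 to 96.5 CPM (ratio 1.49, 1.28 to 1.73) and SRSF9 from 157 to 117 CPM (ratio 0.742, 0.660 to 0.832). Both passed the FDR there without reaching 2-fold. In Hep3B-C their log2 fold-changes of 0.23 and 0.19 did not pass. SRSF4 (98.1, 107, 76.9 and 108 CPM) had ratios of 1.09 and 1.41, and SRSF8 (12.1, 9.69, 27.3 and 22.8 CPM) had 0.802 and 0.836. SRSF5 (115, 60.3, 81.1 and 71.3 CPM) came closest to a call in Hep3B-C, with a ratio of 0.526 (0.447 to 0.619).

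As a group, hnRNP genes were nearly level in Hep3B-C and higher in Huh7-C. They summed to 6822 CPM in Hep3B and 6628 in Hep3B-C, a ratio of 0.972 (0.954 to 0.989). In Huh7 and Huh7-C they summed to 5670 and 7775 CPM, a ratio of 1.37 (1.35 to 1.39). With at least 20 counts in the pair, 18 of 19 hnRNP genes were higher in Huh7-C and 8 of 19 in Hep3B-C. Over all such genes 6000 of 11134 were higher in Huh7-C and 4316 of 11433 in Hep3B-C. Under TMM scaling the hnRNP counts were 18 and 11, against 5677 and 5547 over all genes. The median log2 fold-change in Huh7-C was 0.39, against 0.06 over all genes, and in Hep3B-C it was -0.19, against -0.55 over all genes (0.29 with TMM scaling).

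HNRNPAB was the only one of the 42 genes called in Huh7-C. It was at 119 and 207 CPM in Hep3B and Hep3B-C, and 170 and 367 CPM in Huh7 and Huh7-C, and each HCSC line was above its parent. The ratio was 2.16 in Huh7-C (1.98 to 2.36, FDR = 1.30e-71) and 1.74 in Hep3B-C (1.54 to 1.98). In Hep3B-C its log2 fold-change of 0.80 became 0.19 with the length trend removed and -0.30 with GC and length trends removed. Medians of all genes were then -0.47 and -0.55. HNRNPL, which binds CA-rich repeats, had nearly equal ratios of 1.72 and 1.71. HNRNPD (AUF1), which binds AU-rich elements and speeds decay of their mRNAs, had the largest log2 fold-change of the hnRNP genes in Hep3B-C, at 0.92 (SE 0.05), and 0.54 in Huh7-C (SE 0.05). HNRNPM had ratios of 1.80 and 1.28. HNRNPAB, HNRNPL, HNRNPD and HNRNPM were called up in Hep3B-C with TMM scaling, which added 0.48 to every log2 fold-change of that pair.

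HNRNPH1, HNRNPR and HNRNPA1L2 were down-regulated in Hep3B-C. HNRNPH1, which binds runs of guanine, was at 454 and 213 CPM in Hep3B and Hep3B-C, and 176 and 265 CPM in Huh7 and Huh7-C. Its ratio was 0.469 in Hep3B-C (0.431 to 0.510) and 1.51 in Huh7-C (1.38 to 1.65). HNRNPR was at 208, 96.1, 123 and 151 CPM, with ratios of 0.462 and 1.23. Neither of these remained called with TMM scaling, with values of -0.61 and -0.63 on the log2 scale. HNRNPA1L2 had 18, 7, 24 and 25 counts, too few to set apart from its parent gene HNRNPA1 if reads were shared.

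HNRNPC, HNRNPK, HNRNPU and HNRNPA2B1, which like HNRNPD and HNRNPL are abundant, stayed within 1.5-fold in the Hep3B pair. HNRNPC was at 833, 763, 925 and 1019 CPM, and HNRNPK, which binds cytosine-rich RNA, at 694, 721, 715 and 824 CPM. HNRNPU, a nuclear matrix protein, was at 1057, 1132, 720 and 1221 CPM, with ratios of 1.07 and 1.70. HNRNPA2B1 was at 879, 616, 816 and 1055 CPM, lower in Hep3B-C (ratio 0.701) and higher in Huh7-C (1.29). The other relatives of HNRNPA1, which as a class bind exonic and intronic silencers, split by pair. HNRNPA3 was at 551, 374, 230 and 322 CPM, with ratios of 0.679 and 1.40. HNRNPA1 was at 86.3, 67.4, 72.5 and 87.7 CPM, with ratios of 0.781 and 1.21. Both were lower in Hep3B-C and higher in Huh7-C, whereas HNRNPA0 (86.0, 89.2, 52.7 and 52.6 CPM) had ratios of 1.04 and 0.999, the smallest change of all.

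The relatives of HNRNPH1 gave the same split at smaller size. HNRNPF was at 251, 179, 163 and 231 CPM (ratios 0.713 and 1.41), HNRNPH2 at 49.0, 34.7, 71.8 and 91.8 CPM (0.707 and 1.28) and HNRNPH3 at 85.6, 75.2, 112 and 156 CPM (0.878 and 1.40). Of the relatives of HNRNPU, HNRNPUL2 was at 159, 108, 68.1 and 124 CPM (0.682 and 1.82) and HNRNPUL1 at 533, 555, 285 and 375 CPM (1.04 and 1.31). These genes passed the fold requirement in neither pair. With TMM scaling the Hep3B-C log2 fold-changes of HNRNPA1 and HNRNPH3 turned to 0.13 and 0.29, and those of HNRNPA2B1, HNRNPA3, HNRNPF, HNRNPH2 and HNRNPUL2 lay between -0.08 and 0. Reads of near-identical copies, such as HNRNPA1 and its pseudogenes or HNRNPH1 and HNRNPH2, may have been assigned to any of them.

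The pairs were then compared directly by the difference of their log2 fold-changes (Hep3B minus Huh7 pair), a test chosen after the data had been seen. The difference passed in 11 of the 42 genes, 2 with a higher and 9 with a lower value in the Hep3B pair, against 13.4% and 26.5% of all genes. SF3B5 (2.67, SE 0.21) and SF3A1 (1.13, SE 0.09) were the higher ones. SFRS18 (-3.46, SE 0.20) and HNRNPA1L2 (-2.11, SE 0.75) had the lowest values. The split depended on the scaling. With TMM 8 genes were higher and 4 lower in the Hep3B pair (20.9% and 17.6% of all genes), and with GC and length trends removed 4 were higher and 7 lower (4.01% and 21.1%). SF3A1, SFRS18, SRSF11 and HNRNPH1 passed in the same direction under all of these settings. Of all 42 genes, 15 were higher in both HCSC lines, 8 were lower in both, 3 were higher in Hep3B-C only and 16 were lower in Hep3B-C only. Over all genes that had 20 or more counts in both pairs these shares were 20.2%, 26.8%, 18.4% and 34.5%. With TMM scaling 19 were higher in both and 5 lower in both, and shares over all genes were not taken for that scaling.

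A joint edgeR quasi-likelihood test over all 4 libraries, with the parental line as a block, called 0 of 41 splicing factors, against 0.077% of all genes. At an unadjusted p under 0.05 it also gave 0, and the smallest adjusted p was 0.999. DESeq2 called 0 as well. SF3A1 was its only gene at an unadjusted p under 0.05, with an adjusted p of 0.934. The biological coefficient of variation of the joint fit was 0.514, and 1 residual degree of freedom was left.

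GC content moved with the Hep3B-C changes. Across 41 splicing factors the log2 fold-change and transcript GC content had a Pearson correlation of 0.662 and a Spearman correlation of 0.687, and across 11338 genes of the same libraries these were 0.581 and 0.631. In the Huh7 pair they were 0.348 and 0.352 for the splicing factors and -0.050 and -0.059 for all genes. The median GC content was 50.9% for SF3 genes, 41.0% for SR genes and 43.8% for hnRNP genes, against 49.5% for all genes of the Hep3B pair. With GC and length trends removed, 4 of 9 SF3 genes were higher in Hep3B-C in place of 7. Over all genes 3176 of 11433 were then higher in place of 4316, and 600 of 15480 were called up and 3991 down. Among the splicing factors 4 were called up and 4 down. The 4 called up were then SF3A1 (log2 fold-change 2.26), SF3B3 (2.13), SF3A3 (1.09) and HNRNPU (1.44), and the 4 called down were SFRS18 (-2.31), HNRNPA1L2 (-1.74), SF3B14 (-1.16) and SRSF5. The part of base composition in these differences was not tested beyond this.

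**Figure D4:**
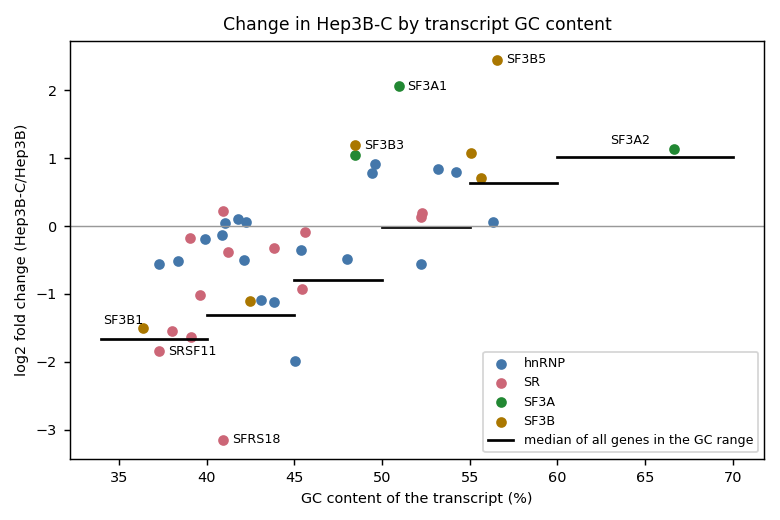
Log2 fold-change in Hep3B-C against transcript GC content (%) for 41 splicing factors, colored by family. Black lines are medians of all genes in ranges of GC content, which rise from -1.66 below 40% GC to 1.02 above 60%. SF3A1, SF3B5 and SF3B3 lie above and SFRS18 below the line of their range. The median of the splicing factors is above the line in every range, from -1.01 below 40% GC to 1.14 (1 gene) above 60%.

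Other parts of the splicing machinery were taken from a list of 140 genes, of which 135 were in the Hep3B pair. In Hep3B-C 22 were up-regulated and 35 down-regulated, or 16.3% and 25.9%, near the 13.2% and 30.4% of all genes. With TMM scaling 38 and 25 were called, against 3056 and 3134 of all 15480 genes. In Huh7-C 5 of 133 were up-regulated and 1 was down-regulated, or 3.76% and 0.752%, against 4.19% and 4.15% of all genes. Genes of the early spliceosome (U1 and U2 snRNP proteins and U2AF) were up-regulated in Hep3B-C in 7 of 14 cases and down-regulated in 2. The largest change was in PUF60, a partner of U2AF (191, 1573, 549 and 822 counts, log2 fold-change 2.36 in Hep3B-C and 0.65 in Huh7-C). None of the 7 remained called with GC and length trends removed. Genes of the U4/U6 and U5 snRNPs were up-regulated in 5 of 17 cases, with PRPF6 (256, 2046, 1434 and 1683 counts) at 2.32. With GC and length trends removed 3 were called up, PRPF6 (1.32), EFTUD2 (1.35) and PRPF8 (1.05), and PRPF8 was not among the 5. PRPF8, the core U5 protein at the catalytic center, was called up in Huh7-C (log2 fold-change 1.03, SE 0.03) and had 0.85 in Hep3B-C. The Huh7-C call was lost with TMM scaling (0.99) and with GC and length trends removed (0.68).

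SR protein kinases, which phosphorylate SR proteins, were down-regulated in 6 of 8 cases in Hep3B-C (30.4% of all genes). With TMM scaling 4 of 8 were called down, against 3134 of all 15480 genes. With GC and length trends removed 4 of 8 were called down, against 3991 of all genes, and CLK3 (-1.46) was not among the first 6. The 8 kinases had a summed level of 881 and 284 CPM in Hep3B and Hep3B-C, and 238 and 326 CPM in Huh7 and Huh7-C. As for the SR genes, Hep3B was the high library. CLK1, a kinase of this group, was down-regulated in both lines, with 94, 22, 74 and 33 counts and log2 fold-changes of -2.75 (SE 0.34) and -1.09 (SE 0.30). With 5 added to each count the Huh7-C value was -0.99 and not called. Among other regulators of splicing, 12 of 28 were down-regulated in Hep3B-C, led by TIA1 (268, 33, 48 and 41 counts, log2 fold-change -3.68). This share of 42.9% stood beside 30.4% of all genes, and 6 of the 28 were called down with GC and length trends removed. SRRM2, a large SR-related protein of nuclear speckles, was up-regulated in Huh7-C at 1.42 (0.94, no longer called, with GC and length trends removed) and had -0.40 in Hep3B-C (0.08 with TMM scaling). SMG1, a kinase of nonsense-mediated decay, was down-regulated in Hep3B-C (-1.91) and up-regulated in Huh7-C (1.47), and neither call held with GC and length trends removed (-0.11 and 0.72).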

How the data were processed

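RNA of 4 cell lines was sequenced with the Illumina Genome Analyzer II. Adapters and low-quality reads were filtered by the authors, who aligned the rest with NextGENe to an NCBI genome build older than GRCh38 and counted reads per transcript. Deposited were raw counts for each gene, as whole numbers, and a gene length that served only for RPKM. Treatment of reads with several matches and strand use were not given in the sources used here. The 42 genes, the gene lists and the tests were chosen with earlier results of these data known.

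Genes were joined by ID. For fold-changes 0.5 was added to each count before division by the library's gene total. A doubled Audic-Claverie tail was adjusted by Benjamini-Hochberg over all genes of the pair (15480 and 14807), and SE were those of Poisson counts. Intervals of ratios were exact binomial intervals given the sum of both counts. Medians used genes with at least 20 counts in the pair. Since nothing says that cultures were repeated, p-values measure counting noise in these samples. The difference between pairs was called at an FDR of 0.01 and a size of 1 by a normal test on Poisson SE. The joint test used edgeR 4.0.16 (TMM, filterByExpr, parental line as block, FDR of 0.05), with genes absent from a pair as 0 counts. The block follows the parental line in the labels, and within the Hep3B line the deviations of both libraries from the group means correlated at 0.569. Alternatives were TMM, DESeq2 1.42.0, count filters, 5 added counts, an assumed biological coefficient of variation (BCV) of 0.2 or 0.4, and removal of length or GC and length trends (lowess). GC content came from GENCODE 29 transcripts, used as annotation only. Genes named singly were, by rule, those with the highest mean level, the largest changes and the smallest changes of each family, and the largest change of each list of other splicing genes. Further members were named to account for all 42, and others where a count had to be resolved. Scripts were tested on simulated data. The software was R 4.3.3 and Python 3.11.15, with pandas 2.3.3, scipy 1.17.1 and numpy 2.4.6.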

Additional observations from a re-analysis of the deposited data

Results flagged for a closer look

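The change in HCSC differed between the Hep3B and Huh7 pairs in 11 splicing factors by a test of the difference itself (log2 fold-change of the Hep3B pair minus that of the Huh7 pair, Poisson SE, FDR of at most 0.01 and size of at least 1). The difference was 2.675 for SF3B5 and 1.132 for SF3A1. It was -1.682 for SF3B1, -3.46 for SFRS18, -1.958 for SRSF11 and -1.485 for SRSF10. Among hnRNP genes it was -1.684 for HNRNPH1, -1.408 for HNRNPR, -1.417 for HNRNPUL2, -1.041 for HNRNPA3 and -2.107 for HNRNPA1L2. With TMM scaling the difference no longer reached the threshold for HNRNPA3, HNRNPR, HNRNPUL2, SRSF10 and HNRNPA1L2, and SF3A2, SF3A3, SF3B3, SF3B4, SRSF9 and HNRNPM passed it with higher values in the Hep3B pair. With GC and length trends removed it did not pass for SF3B5 (0.636), SF3B1 (-0.325), SRSF10 (-0.633), HNRNPR (-0.957), HNRNPA3 (0.681) and HNRNPA1L2 (-1.925). SF3B3, SRSF3 and HNRNPU then passed with higher values, and SF3A2, SF3B14 and HNRNPAB with lower values. For the 11 splicing factors SE lay between 0.08 and 0.21 except for HNRNPA1L2 (0.75), and the test covers sampling noise only. Hep3B was the library farthest from the others for SF3B1, SF3B5, SFRS18, SRSF10 and SRSF11, while its part in these differences was not tested beyond the values given.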

How the results depend on the processing

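The calls in Hep3B-C (6 up, 10 down) depended on the scaling. They were 11 up with TMM and 11 with DESeq2 size factors, and 5 and 4 down. Over all 15480 genes these settings called 3056 and 3164 up, and 3134 and 3015 down. Among the 42 genes an assumed BCV of 0.2 left 2 up and 4 down, and a BCV of 0.4 left 0 and 0. Over all 15480 genes these left 1374 up and 3166 down, and 62 up and 169 down. Removal of GC and length trends left 4 up and 4 down, against 600 and 3991 of all genes. With Huh7 in place of Hep3B, chosen after seeing the data, 3 of the 42 were up and 4 down, against 13.1% and 19.5% of all genes. That comparison sets Hep3B-C against a line it was not derived from, so differences between the lines enter it. The 1 call in Huh7-C gave 0 at a BCV of 0.2 and 0 at 0.4. Over all 14807 genes of that pair these left 97 up and 161 down, and 13 up and 12 down. The median log2 fold-change of splicing factors in Hep3B-C, -0.18, turned to 0.301 with TMM and 0.347 with DESeq2 size factors, and was -0.065 with the length trend and -0.008976 with both trends removed. Calls among other splicing genes went from 57 in Hep3B-C to 1 at a BCV of 0.4 and 30 without GC and length trends, and from 6 in Huh7-C to 3 with TMM, 0 at a BCV of 0.4 and 2 without the trends. Without those trends SF3A2 turned to -0.856, RALY to -0.57, SF3B4 to -0.26, SF3B2 to -0.20 and HNRNPAB to -0.30 in Hep3B-C. The median of all genes was then -0.55. The genes whose pairs differed (2 higher and 9 lower in the Hep3B pair) were 8 and 4 with TMM, and 4 and 7 without the trends, settings chosen after seeing the data. The joint test called 0 splicing factors with the replicate block, without it, with DESeq2, without a count filter and without any 1 library (0 to 0). Depth limits HNRNPA1L2, HNRNPA3P1 and SRSF12, and the cause of these shifts was not tested.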
